A study of Mus musculus with 248 samples.

Results

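Akap12, Cplx2, Abca6, Hpgd, Cecr2, Rapgef3, Ngfr, Adamts14 and Sdc1 are 9 transcripts that stood lower in the blood of mice with an inducible CM leukemia gene than in control blood during months 1 to 3 after induction. They are 9 of the 18508 genes of a training table and 9 of the 13607 genes of a validation table, matched by Ensembl ID. The levels of months 1 to 3 chose them, so those levels are described below without a test. Tests are given at month 0, at months 4 to 6, in each mouse's last library, in leukemia libraries and in ageing controls.

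Blood cells labelled PBMC were drawn repeatedly from the same mice and their RNA was sequenced. All mice were C57BL/6, were 4 to 8 weeks old at treatment, and received 7 doses of poly (I:C) at 14 mg/kg, 1 every other day, controls included. CM mice (genotype CHW) carried Cbfb+/56M, a knock-in of the CBFB::MYH11 fusion gene that Cre has to activate, and Mx1-Cre. Ctrl mice carried Mx1-Cre alone (CW), Cbfb+/56M alone (HW) or neither (WT). Mx1-Cre is switched on by interferon in many tissues, so the knock-in is not activated in blood cells alone. Training comprised 55 libraries from 7 CM mice and 77 from 7 Ctrl mice (4 CW, 2 HW and 1 WT). Validation comprised 68 libraries from 13 CM mice and 48 from 8 Ctrl mice (4 CW, 2 HW and 2 WT). In validation, 6 CM libraries were labelled leukemia, and 3 CM and 2 Ctrl mice were sampled by week only. Levels are given in CPM, read counts scaled to the size of each library, which are not per length and are compared only within a gene.

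The CBFB::MYH11 protein binds RUNX1 and disturbs its control of blood cell genes, and mice with it develop acute myeloid leukemia once further changes arise. The 9 transcripts come from unrelated families. Akap12 encodes a scaffold that tethers protein kinases A and C, and Rapgef3 a cAMP-activated exchange factor for Rap proteins (Epac1). Ngfr encodes the p75 neurotrophin receptor and Sdc1 syndecan-1 (CD138), a heparan sulfate proteoglycan of the plasma cell surface. Hpgd inactivates prostaglandins, Adamts14 is a procollagen N-propeptidase, Abca6 belongs to the ABCA lipid transporters, Cplx2 is a complexin that binds the SNARE complexes of secretion, and Cecr2 is a bromodomain protein of an ISWI chromatin remodeller.

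All 9 are protein coding and lie on different chromosomes apart from Akap12 with Adamts14 on chromosome 10 and Abca6 with Ngfr on chromosome 11. RefSeq promoter windows of GRCm38.p6, 250 bases before to 50 after the annotated start, were at hand for 6 of the 9. For Cplx2 and Rapgef3 the window lies wholly inside the annotated gene, so the start used is not the outermost one. Cplx2 and Rapgef3 are printed because their late course differed from that of the other 7, and Hpgd and Adamts14 because they had the largest drops in the leukemia libraries. Capitals mark GGGCGG or its reverse complement (GC box letters) and TGACGT or its reverse complement (the core of a cAMP response element), and neighbouring GC box matches may share letters. All 4 read 5′ to 3′ on the gene's own strand.
Cplx2: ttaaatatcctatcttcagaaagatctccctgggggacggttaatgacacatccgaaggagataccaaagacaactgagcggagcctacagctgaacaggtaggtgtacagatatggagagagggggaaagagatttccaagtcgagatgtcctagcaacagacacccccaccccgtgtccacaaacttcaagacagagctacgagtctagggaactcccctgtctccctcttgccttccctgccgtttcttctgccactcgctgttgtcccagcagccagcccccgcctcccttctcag
Rapgef3: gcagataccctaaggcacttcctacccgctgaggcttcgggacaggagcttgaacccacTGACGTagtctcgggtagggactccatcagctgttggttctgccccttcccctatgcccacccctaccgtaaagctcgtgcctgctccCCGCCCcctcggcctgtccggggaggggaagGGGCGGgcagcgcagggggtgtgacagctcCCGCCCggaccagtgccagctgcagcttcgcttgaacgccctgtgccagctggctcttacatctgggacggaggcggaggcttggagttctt
Hpgd: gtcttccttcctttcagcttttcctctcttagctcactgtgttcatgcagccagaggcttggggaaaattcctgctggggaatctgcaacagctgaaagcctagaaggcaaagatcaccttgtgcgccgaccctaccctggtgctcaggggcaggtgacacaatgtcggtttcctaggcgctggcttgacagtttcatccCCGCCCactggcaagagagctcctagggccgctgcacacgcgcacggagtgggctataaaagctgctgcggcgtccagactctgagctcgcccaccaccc
Adamts14: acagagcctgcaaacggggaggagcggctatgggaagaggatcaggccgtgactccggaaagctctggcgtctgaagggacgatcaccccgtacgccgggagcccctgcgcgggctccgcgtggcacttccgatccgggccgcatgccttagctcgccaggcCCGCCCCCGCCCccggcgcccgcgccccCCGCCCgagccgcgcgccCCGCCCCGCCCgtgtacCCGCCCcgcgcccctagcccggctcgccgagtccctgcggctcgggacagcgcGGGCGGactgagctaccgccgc
The Cplx2 window is chr13:54302306-54302605 on the plus strand, has 53.3% G and C with 9 CpG pairs, and holds none of the letters searched. The Rapgef3 window, chr15:97767617-97767916 on the minus strand, holds 1 TGACGT, which 7.51% of 32851 mouse promoter windows also hold, and 3 GC boxes, which 35.7% hold at least once. The Hpgd window, chr8:56294302-56294601 on the plus strand, holds 1 GC box and 1 TATAAA, which is left in lower case and which 13.6% of windows hold. The Adamts14 window, chr10:61273370-61273669 on the minus strand, is the richest of the 6 in G and C at 76.7%, with 44 CpG pairs and 7 GC boxes. Neither TGTGGT nor TGCGGT, letters bound by RUNX proteins, stood on either strand in any of the 6 windows, against 22.4% of all windows with at least 1. A match or its absence in 300 bases is a description and says nothing of binding.

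Libraries held 15996368 to 36259517 reads in training and 8682789 to 34413068 in validation. The row for the knock-in's MYH11 part, named MHY11 in the tables, averaged between 3.30 and 4.61 log2 CPM in 12 validation CM mice, but -3.67 in the mouse labelled CM 2700. In training it was low in all 7 CM mice, at -3.68 to -1.82, and at the level of 0 reads in the CW mice, so its low level in 2700 is a comparison within validation only. The row also stood at 3.09 and 3.17 in the validation HW mice, so it marks the allele and not its activation. Kit, the stem cell factor receptor, averaged 4.80 log2 CPM in the median training CM mouse and between 0.87 and 1.74 in the training CW mice. In validation it averaged 5.84 in the median CM mouse and between 1.37 and 1.83 in the CW mice. The lowest validation CM mean was 1.99, that of 2700, and 2.79 without 2700. In 1 validation library, that of CM mouse 2731 at month 0, sex-linked genes went against the labelled sex. Member medians of the validation comparisons that hold 2700, and of those that use the month 0 library of 2731, are given with and without that mouse. Each validation month was sequenced as a run of its own, so month and run cannot be told apart there. In PBMC sequenced together, fewer cells of a type and less RNA per cell cannot be told apart in any of the values below.

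The members of cAMP signalling were low in training CM blood by month 1. Akap12 ranged over 8.90, 12.7 and 23.5 CPM (lowest, median and highest) in 7 CM mice at month 1, against 18.7, 53.2 and 61.4 CPM in 7 Ctrl mice. At month 2 it ranged over 11.4, 15.2 and 24.4 CPM in CM, against 45.6, 60.1 and 63.3 CPM in Ctrl. The month 1 ranges overlapped and those of month 2 lay apart, every CM mouse below every Ctrl mouse. At month 3 Akap12 had 4.68, 10.4 and 19.8 CPM in CM, against 37.1, 48.9 and 71.04 CPM in Ctrl, a log2 difference of -2.14 ± 0.26 (SE). Again no mouse of either arm crossed into the range of the other. Rapgef3 was a low transcript throughout, with 0.40, 1.37 and 1.67 CPM in CM at month 2 and 2.72, 4.19 and 4.65 CPM in Ctrl.

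The surface proteins were low in CM blood as well. Ngfr had 3.25, 4.33 and 5.85 CPM in CM at month 2, against 7.54, 9.31 and 10.4 CPM in Ctrl. Sdc1 had 3.11, 4.76 and 10.4 CPM in CM at month 2, against 10.2, 11.5 and 17.5 CPM in Ctrl, and 0.91, 2.73 and 4.25 CPM in CM at month 3, against 7.52, 11.8 and 14.97 CPM in Ctrl. The Sdc1 ranges touched at month 2 and lay apart at month 3. The high Sdc1 value at month 1 came from CM mouse 3357, at 18.5 CPM.

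Of the enzymes, Hpgd varied most between CM mice. It had 1.75, 3.55 and 10.4 CPM in CM at month 1, against 8.58, 15.6 and 22.9 CPM in Ctrl, and 2.38, 8.37 and 32.8 CPM in CM at month 2, against 16.9, 22.3 and 26.7 CPM in Ctrl. Thus 1 CM mouse exceeded every Ctrl mouse at month 2, and at month 3 the ranges lay apart again. Adamts14 had 3.51, 6.12 and 9.08 CPM in CM at month 1, against 11.2, 20.2 and 25.1 CPM in Ctrl. At month 3 Adamts14 was below its own month 0 level in 7 of 7 CM mice, with a median change of -2.71 on the log2 scale, and in 7 of 7 Ctrl mice, with a median change of -1.03. It was thus below its starting level in both arms.

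Among the remaining members, the lipid transporter Abca6 had 0.47, 1.26 and 2.69 CPM in CM at month 1, against 4.75, 6.53 and 9.29 CPM in Ctrl, with ranges apart at each of months 1 to 3. The complexin Cplx2 had 1.55, 2.23 and 8.53 CPM in CM at month 2, against 12.4, 16.8 and 20.1 CPM in Ctrl, a log2 difference of -2.63 ± 0.34. At month 3 Cplx2 reached 22.2 CPM in 1 CM mouse, above the Ctrl high of 12.96 CPM. The bromodomain gene Cecr2 had 6.89, 16.8 and 26.6 CPM in CM at month 2, against 51.4, 72.8 and 74.97 CPM in Ctrl.

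Every training CM mouse lay below every Ctrl mouse for 2 members at month 1 (Abca6 and Adamts14), for 7 at month 2 (all but Hpgd and Sdc1) and for 6 at month 3 (Akap12, Abca6, Hpgd, Cecr2, Rapgef3 and Sdc1). Over all genes this was so for 1.28% at month 1, 3.3% at month 2 and 1.59% at month 3. The members were chosen on these values, so nothing is read from that contrast. The median log2 difference of the 9 was -1.65, -1.58 and -1.61 in months 1 to 3, beside medians of -0.18, -0.09 and -0.07 over all genes.

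**Figure D1:**
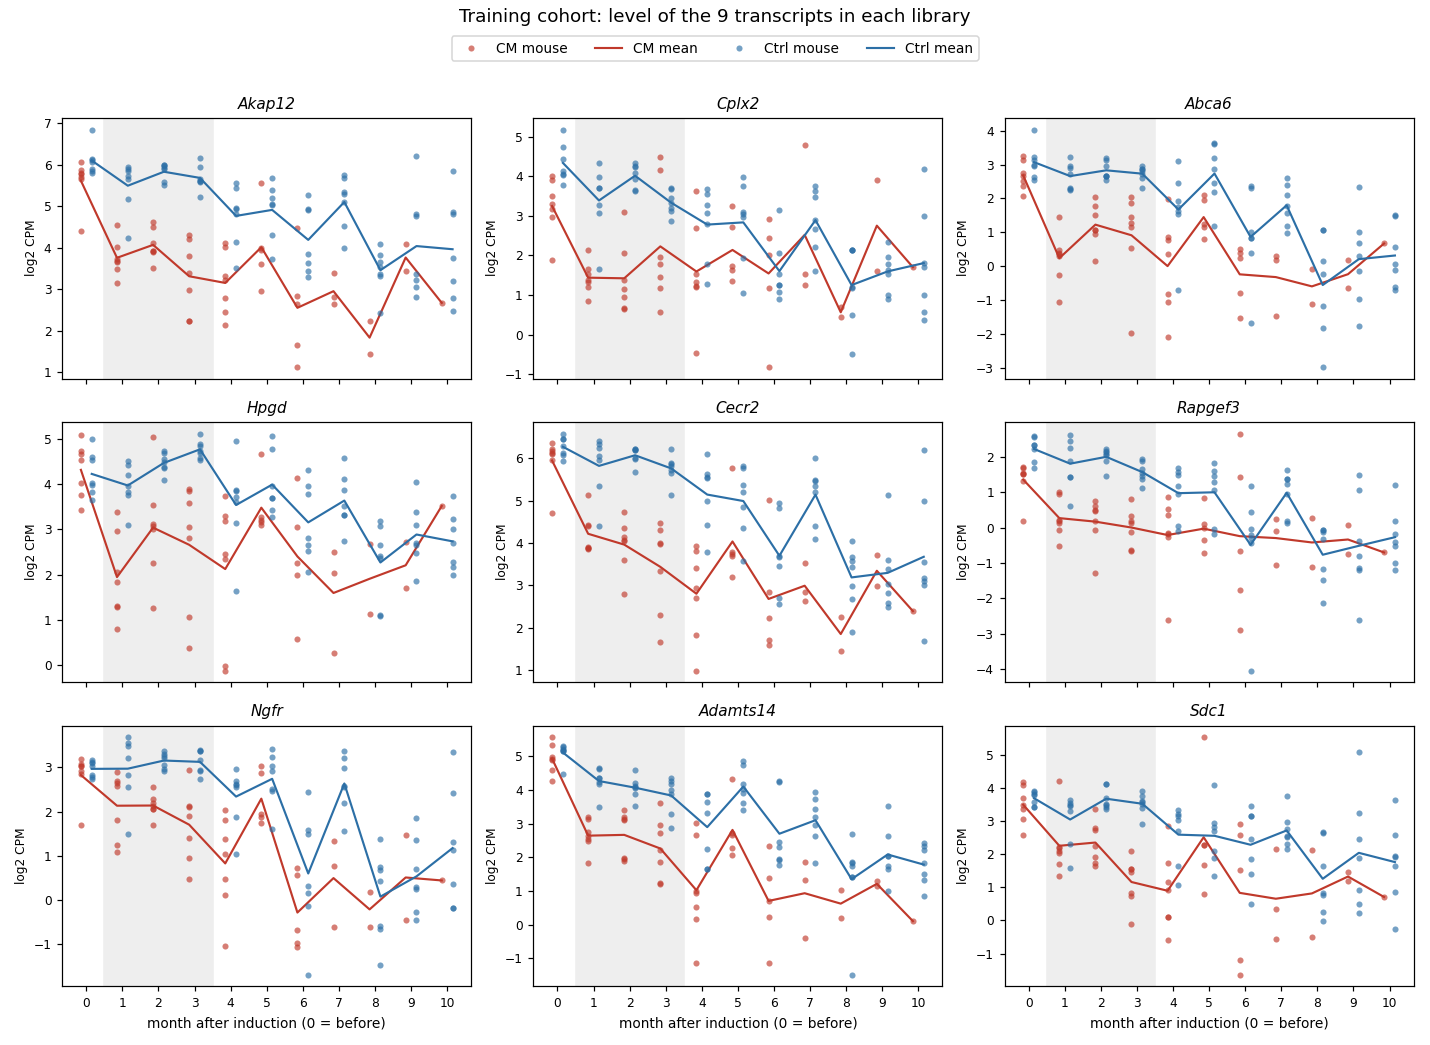
Level of each of the 9 transcripts in training blood on a log2 CPM axis by month, with CM points left of Ctrl points, lines through the group means and a grey band over months 1 to 3, the months that chose the members. Within the band CM lies below Ctrl on average for all 9, and after it both arms spread and decline.

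Validation blood, sequenced from another library kit, showed the early gap with more overlap between the arms. Hpgd had 4.72, 10.1 and 42.4 CPM in 10 CM mice at month 1, against 18.9, 28.2 and 36.3 CPM in 6 Ctrl mice. Abca6 had 0.47, 3.89 and 7.74 CPM in 9 CM mice at month 3, against 9.94, 11.5 and 15.3 CPM in 6 Ctrl mice, the only member and month in which validation ranges lay apart. The counts were thus 0, 0 and 1 of 9 in months 1 to 3, beside 0.83%, 0.022% and 0.206% of all genes. The median log2 differences of the 9 were -1.21, -1.46 and -1.77, with all 9 negative at month 1 and 8 at months 2 and 3. Without 2700 the medians were -1.37, -1.71 and -2.001. Cplx2 was the exception, at 0.26 ± 0.59 and 0.22 ± 0.56. Its CM range at month 2 was 1.22, 3.77 and 46.5 CPM, against 1.45, 4.28 and 8.99 CPM in Ctrl, and without CM mouse 2731 the difference was -0.058.

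Distances were lower on the whole in CM mice that were also sampled at leukemia. For each mouse the log2 distances of the 9 transcripts from that month's Ctrl mean were averaged. The 6 validation CM mice with a leukemia library lay between -1.99 and -1.20 at month 1 and between -2.92 and -1.23 at month 2. The 4 without one (2685, 2686, 2700 and 2709) lay between -1.43 and -0.11 at month 1 and between -0.99 and 0.20 at month 2. At month 3 the distances were -4.16 to -1.45 in 5 mice with such a library and -0.98 to 0.089 in the 4 without. The highest of the 4 at each of these months was 2700, the mouse with few knock-in reads, and without it the others lay between -0.98 and -0.26 at month 3. In training, all 7 CM mice lay at -0.95 or lower in months 1 to 3, and the only Ctrl mouse that low was 3342 at month 1, at -1.18. These months chose the members, and the order of the mice was not tested.

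**Figure D2:**
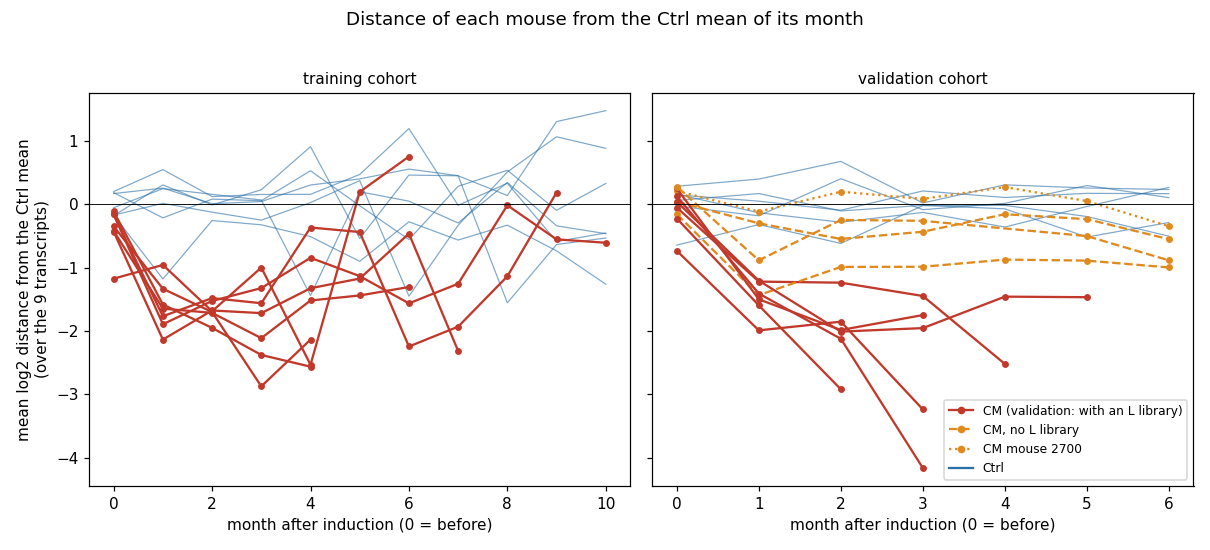
Mean log2 distance of the 9 transcripts from the Ctrl mean of the same month, by mouse and month, in each cohort. Red solid lines are CM mice (in validation those with a leukemia library), orange dashed lines validation CM mice without one, the dotted line the mouse labelled CM 2700, and blue lines Ctrl mice; most red lines run below -1 in months 1 to 3.

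Before induction no member differed by test. At month 0, drawn before the poly (I:C) doses, 8 of 9 members were lower in training CM blood, with a median log2 difference of -0.34 beside -0.04 over all genes, and none passed the limma test at an adjusted p of 0.05. Without CM mouse 3334 that median was -0.14. Only 0.0054% of genes, 1 in all, passed there, and 1715 had an unadjusted p under 0.05. Rapgef3 and Cplx2 had the lowest month 0 differences, at -0.97 ± 0.23 and -1.18 ± 0.31 (limma, adjusted p = 0.347 for each). Rapgef3 had 1.12, 2.86 and 3.25 CPM in CM, against 3.19, 4.98 and 5.94 CPM in Ctrl. The lowest value belonged to CM mouse 3334, whose mean distance at month 0 was already -1.17. In validation 7 members were higher and 2 lower at month 0, with a median of 0.05 (0.026 without 2700 and 0.075 without 2731), and none passed the limma test, which called 0% of genes, with 208 genes at an unadjusted p under 0.05.

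At months 4 to 6, which the choice did not use, all 9 members were still lower on average in CM blood of both cohorts, and only Akap12 in training passed the test. Over each mouse's mean of those months, Akap12 had 4.41, 9.47 and 25.6 CPM in 7 training CM mice, against 13.5, 30.9 and 34.1 CPM in 7 Ctrl mice. The ranges overlapped only because CM mouse 3334 lay above Ctrl mouse 3342. The log2 difference was -1.44 ± 0.29 (limma, Benjamini-Hochberg adjusted p = 0.0289), 1 member of 9 called where 0.724% of genes were called. The call was lost when any of 9 of the 14 mice was left out (limma, adjusted p between 0.051 and 0.165 in those fits), while the difference stayed between -1.69 and -1.33 over all 14. Adamts14 had the larger difference but missed the threshold, with 0.44, 2.91 and 8.68 CPM in CM, against 8.69, 10.1 and 20.1 CPM in Ctrl. Its ranges just failed to meet, and its log2 difference was -1.88 ± 0.44 (limma, adjusted p = 0.0553). Cecr2 stood at -1.54 ± 0.37, Abca6 at -1.52 ± 0.46 and Sdc1 at -1.32 ± 0.43 (limma, adjusted p = 0.0695, 0.133 and 0.161). Hpgd stood at -1.11 ± 0.50, Ngfr at -1.08 ± 0.39 and Rapgef3 at -0.67 ± 0.36 (limma, adjusted p = 0.324, 0.212 and 0.404). The smallest gap was that of Cplx2, with 2.26, 4.31 and 12.4 CPM in CM, against 2.63, 6.57 and 10.99 CPM in Ctrl, and a log2 difference of -0.52 ± 0.40. The median of the 9 was -1.32 beside -0.02 over all genes. Libraries numbered 7, 5 and 5 in CM at months 4, 5 and 6, against 7 at each month in Ctrl. CM mice 3338 and 3357 had month 4 only, so the means of the arms do not cover the same months.

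Leaving sex out of the model called 3 of the 9 instead of 1, where 2.15% of all genes were called. Scaling by median ratios called 0, where 0.373% were. Using all libraries of months 4 to 6 with each mouse as a replicate block called 4, where 4.97% of genes were called. The consensus correlation of that fit was -0.0236, so repeated libraries of a mouse counted nearly as separate mice. The 4 globin genes, transcribed in red cell precursors, took a median of 10.7% of reads in training CM libraries of these months and 12.5% in Ctrl, with ranges of 0.21% to 39.3% and 1.35% to 37.4%. Their part in the differences was not tested. CM mouse 3334 left the other CM mice after month 4, its mean distance being -2.53 at month 4, 0.20 at month 5 and 0.76 at month 6.

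In validation months 4 to 6 the log2 differences ran between -1.18 ± 0.51 for Abca6 and -0.43 ± 0.55 for Cplx2. Abca6 had 0.87, 6.56 and 11.5 CPM in 6 CM mice, against 7.65, 12.5 and 14.6 CPM in 6 Ctrl mice. None of the 9 passed the limma test (adjusted p between 0.812 and 0.816), nor did any gene, 0% being called, with 290 genes at an unadjusted p under 0.05. Cecr2 stood at -1.13 ± 0.33, Hpgd at -1.07 ± 0.82 and Ngfr at -1.06 ± 0.53, with Adamts14, Sdc1, Akap12 and Rapgef3 between -1.03 and -0.69. The median of the 9 was -1.03 beside 0.01 over all genes, -1.26 without 2700 and -0.61 without 2684. Without 2684 Hpgd stood at -0.35 and Sdc1 at -0.39. The 6 CM mice of these months included 2700, and the 4 that reached month 6 had no leukemia library.

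**Figure D3:**
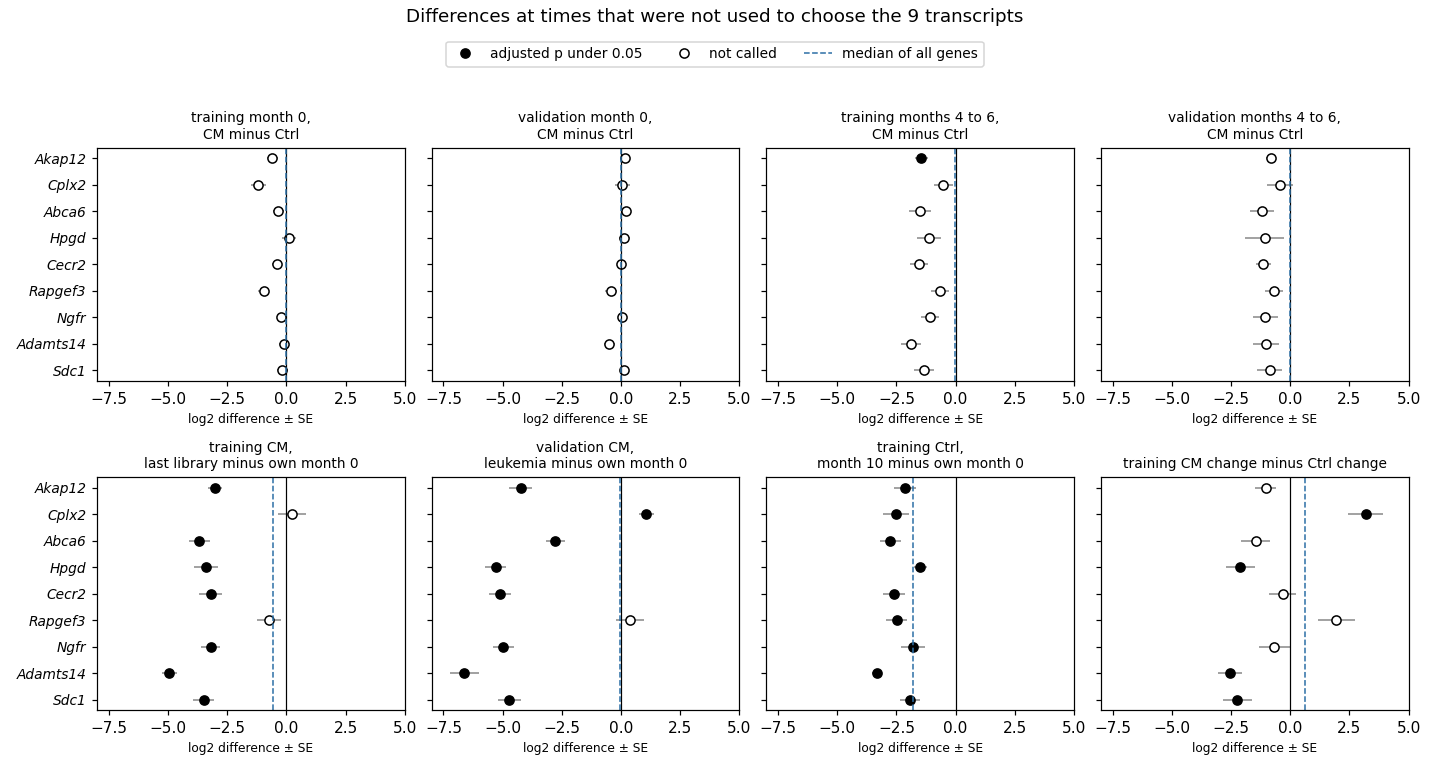
Log2 difference with its SE for each of the 9 transcripts in 8 comparisons that the choice of members did not use. Filled points passed the limma test at an adjusted p of 0.05 and the dashed line is the median of all genes. Most points lie near the line at month 0, while Cplx2 and Rapgef3 lie left of it in training. Points lie left of the line at months 4 to 6, and far left of it in the leukemia libraries except for Cplx2 and Rapgef3.

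In each training CM mouse's last library, taken between months 4 and 10, 7 of the 9 members had fallen below the mouse's own month 0 level (limma, adjusted p under the threshold, where 46% of genes were called). Training libraries carry no leukemia label. The last libraries of 3338 and 3357 (month 4) and of 3341 (month 6) also entered the means of months 4 to 6. The results of those months and of the last libraries thus share libraries. Adamts14 had 0.44, 1.07 and 2.43 CPM in the last libraries, against 19.002, 30.2 and 46.9 CPM in the month 0 libraries of the same 7 mice. It was lower in 7 of 7 mice, with a change of -4.94 ± 0.33 on the log2 scale (limma, adjusted p = 6.94e-06). Abca6 had 0.22, 0.35 and 1.58 CPM in the last libraries, against 4.15, 6.35 and 9.51 CPM at month 0, a change of -3.68 ± 0.44 (limma, adjusted p = 0.000116). Akap12, Cecr2, Ngfr, Hpgd and Sdc1 also fell in 7 of 7 mice, with changes of -3.50 to -3.01 on the log2 scale. Cplx2 did not follow, with 3.24, 12.4 and 50.8 CPM in the last libraries, against 3.67, 9.90 and 16.1 CPM at month 0. It was lower in 4 mice and higher in 3, and its change was 0.24 ± 0.59 (limma, adjusted p = 0.774). Rapgef3 changed by -0.73 ± 0.51 (limma, adjusted p = 0.262), lower in 6 of 7 mice. In mouse 3334 Cplx2 stood at 50.8 CPM in the last library against 3.67 CPM at month 0, and Rapgef3 at 4.77 against 1.12 CPM. Without that mouse the change was -0.36 for Cplx2 and -1.20 for Rapgef3, the second then passing the limma test (adjusted p = 0.0348).

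Ctrl blood also changed with time, so the CM change was set against each Ctrl mouse's own change to month 6. Adamts14 fell by 2.56 ± 0.50 more in CM than in Ctrl on the log2 scale, Sdc1 by 2.24 ± 0.61 and Hpgd by 2.11 ± 0.61 (limma, adjusted p = 0.00282, 0.0106 and 0.0135). Cplx2 stood the other way, with a CM change above the Ctrl change by 3.19 ± 0.73 (limma, adjusted p = 0.00554). In Ctrl it was below month 0 in 7 of 7 mice at month 6, with a median change of -2.87, while its CM change alone was not called. These are 4 of 9 members called where 37.5% of genes were, with a member median of -1.03 and a median of 0.61 over all genes. Rapgef3, also above 0, was at 1.95 ± 0.78 (limma, adjusted p = 0.0539). These changes are counted from month 0, where CM against Ctrl was -1.18 for Cplx2 and -0.97 for Rapgef3, neither called. The part of these starting levels was not tested. With median-ratio scaling 7 members were called lower and 1 higher, where 35.9% of genes were called, and the member median was -1.96. Hpgd lost its call without Ctrl mouse 3349 or 3350 (limma, adjusted p = 0.0545 and 0.0577), and Sdc1 against the Ctrl change to month 10 (limma, adjusted p = 0.0767). Globin genes took a median of 29.9% of reads in the Ctrl libraries of month 6, the highest of months 0 to 6, and their part was not tested. Against the Ctrl change to month 5 the Cplx2 value was 1.87 and no longer passed (limma, adjusted p = 0.0666), and 7 members passed, where 34% of genes were called.

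In the 6 leukemia libraries of validation, 7 members stood below the same mice's month 0 levels on average. Cplx2 had risen and Rapgef3 was mixed. Adamts14 had 0.35, 0.21, 0.12, 0.15, 0.10 and 1.13 CPM in the leukemia libraries of mice 2684, 2690, 2708, 2718, 2719 and 2731, against 23.6, 19.1, 32.4, 30.5, 34.7 and 12.8 CPM at month 0. Hpgd had 0.41, 1.28, 0.82, 1.04, 3.03 and 3.79 CPM in the leukemia libraries of the same mice in that order, against 50.4, 27.004, 79.1, 55.6, 47.9 and 70.5 CPM at month 0. Every leukemia library lay below every month 0 library for both enzymes. The share of all genes for which this held is not given, so nothing is read from it. The changes were -6.62 ± 0.61 for Adamts14 and -5.30 ± 0.44 for Hpgd (limma, adjusted p = 4.52e-05 and 2.53e-05). With a prior of 2 reads in place of 0.25 they were -6.105 and -5.18. Adamts14 had under 10 reads in some of these libraries, so its size depends on the prior too. Ngfr was close to the detection limit, at 2 to 6 reads per leukemia library (0.07 to 0.23 CPM), against 3.38 to 5.97 CPM at month 0 in the same mice. Its change was -4.97 ± 0.44 with a prior of 0.25 reads and -4.23 with a prior of 2 reads, so its size depends on that setting. Sdc1 had 0.27 to 1.82 CPM at leukemia, against 12.8 to 21.97 CPM at month 0, a change of -4.73 ± 0.48 (limma, adjusted p = 7.53e-05).

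Akap12 and Cecr2 shared a library that stood apart. Akap12 had 16.8 CPM in the leukemia library of mouse 2684 and 1.37 to 4.33 CPM in the other 5, against 29.2 to 71.2 CPM at month 0. Cecr2 had 9.33 CPM in 2684 and 0.54 to 1.45 CPM in the other 5, against 31.4 to 75.5 CPM at month 0. Their changes were -4.24 ± 0.50 and -5.11 ± 0.47 (limma, adjusted p = 0.000152 and 4.62e-05), and -4.76 and -5.59 without 2684. Abca6 fell by 2.78 ± 0.39 on the log2 scale (limma, adjusted p = 0.000414). It had 0.74 to 3.06 CPM at leukemia, against 5.47 to 12.4 CPM in all 10 CM mice at month 0.

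Cplx2 had 27.7, 13.8, 18.3, 4.29, 12.6 and 13.6 CPM in the leukemia libraries of mice 2684, 2690, 2708, 2718, 2719 and 2731, against 8.92, 3.29, 8.499, 6.39, 6.89 and 5.57 CPM at month 0. It was higher in 5 of 6 mice, by 1.06 ± 0.33 on the log2 scale (limma, adjusted p = 0.0199). The call was lost without 2684, 2690 or 2708 (limma, adjusted p = 0.058, 0.0557 and 0.0526), with changes of 0.95, 0.87 and 1.06. Rapgef3 had 1.05, 4.97, 5.95, 4.79, 1.05 and 10.5 CPM in the same libraries, against 3.14, 1.79, 2.59, 3.10, 3.67 and 1.95 CPM at month 0. It was higher in 4 mice and lower in 2, its change of 0.39 ± 0.59 did not pass (limma, adjusted p = 0.58), and without 2731 it was -0.014. In all, 8 of 9 members were called, 7 lower and 1 higher, where 64.5% of genes were called. The median of the 9 was -4.73 beside -0.04 over all genes, and -5.00 without 2731, the mouse whose month 0 library went against its sex label. The leukemia libraries were taken as a sequencing run of their own, so run and disease cannot be told apart. The serial number that ends the title of the 2684 leukemia library lies among those of month 5. Those of the other leukemia libraries do not, so 2684 may have been prepared apart from them.

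**Figure D4:**
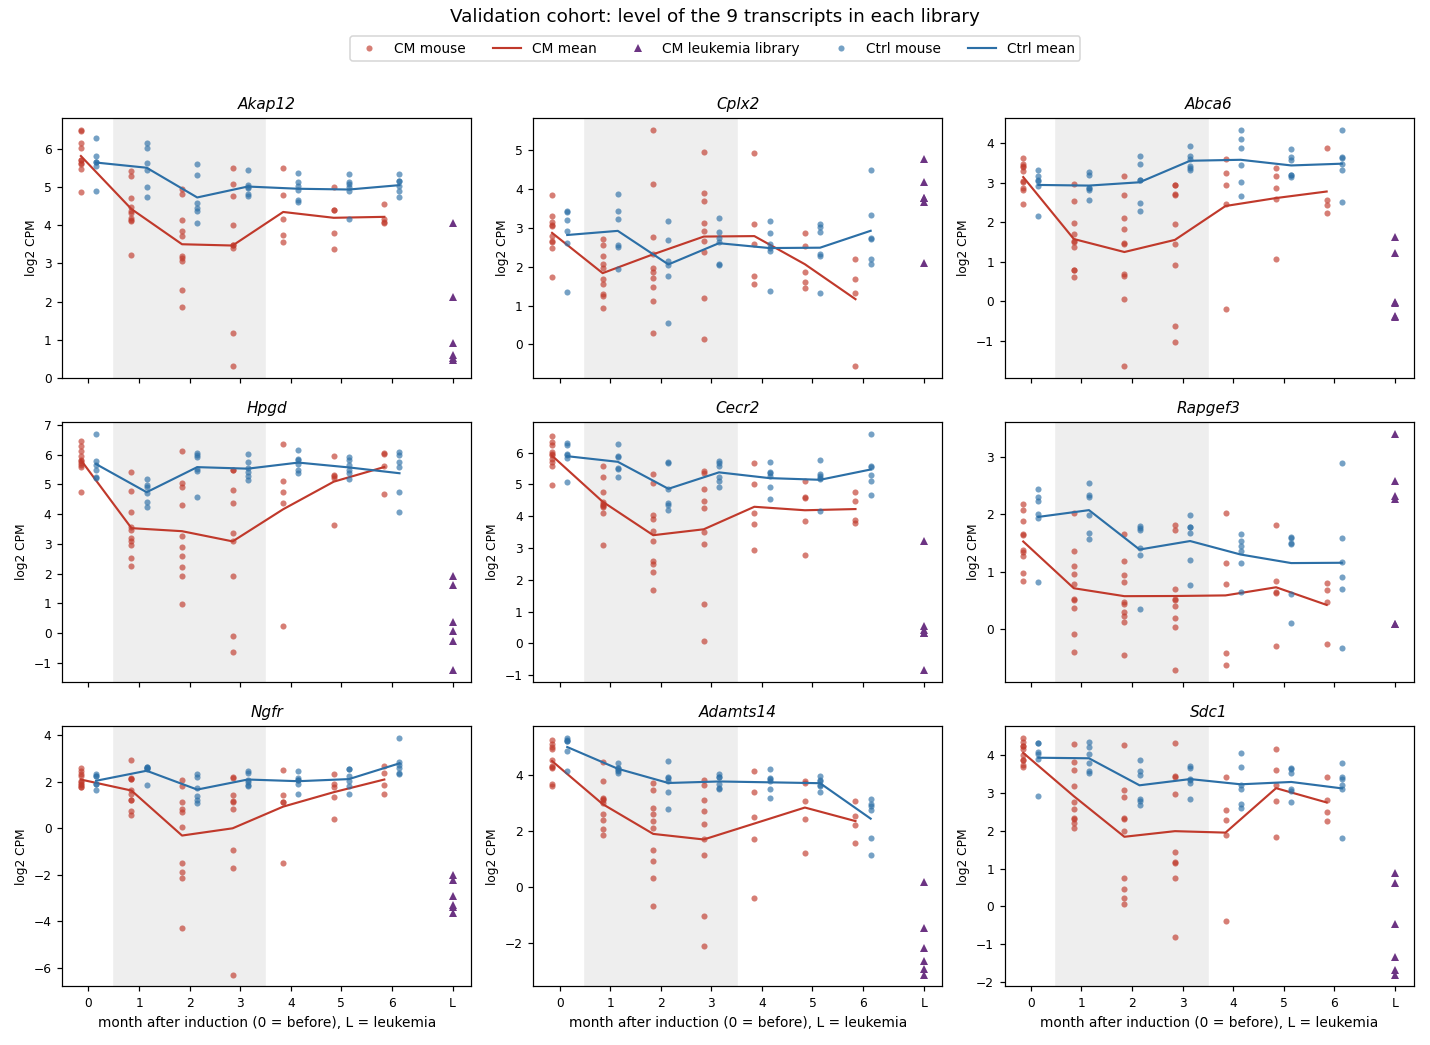
Level of each of the 9 transcripts in validation blood on a log2 CPM axis by month, with CM points left of Ctrl points, lines through the group means, a grey band over months 1 to 3 and purple triangles for the 6 leukemia libraries. The triangles lie mostly in the lower part of 7 panels and within or above the range of the other points for Cplx2 and Rapgef3.

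Mice sampled by week gave the course in single animals. Akap12 had 7.85, 6.90 and 2.01 CPM in CM mouse 3130 at weeks 20, 24 and 25, and 11.1, 5.94 and 2.87 CPM in CM mouse 3131 at weeks 20, 24 and 28. It had 12.8, 6.62 and 4.70 CPM in CM mouse 3200 at weeks 10, 14 and 18. In Ctrl it had 34.2, 38.6 and 29.9 CPM in mouse 3127 at weeks 20, 24 and 28, and 48.2, 66.1 and 40.8 CPM in mouse 3202 at weeks 10, 14 and 18. Akap12 was thus lower at each later week in the 3 CM mice and at 29.9 CPM or higher in the Ctrl mice. Abca6 ranged between 0.47 and 1.80 CPM in the CM libraries and between 5.05 and 10.8 CPM in the Ctrl libraries. Hpgd ranged between 2.92 and 11.1 CPM in CM and between 28.4 and 53.5 CPM in Ctrl. Cecr2 (1.78 to 11.7 CPM in CM, against 35.7 to 74.3 CPM in Ctrl), Ngfr (0.044 to 3.60 CPM in CM, against 5.30 to 7.90 CPM in Ctrl) and Adamts14 (0.22 to 5.39 CPM in CM, against 8.43 to 18.6 CPM in Ctrl) also lay apart. Sdc1 overlapped, at 0.26 to 27.9 CPM in CM and 7.34 to 15.9 CPM in Ctrl, its high value being that of CM mouse 3131 at week 20. Cplx2 overlapped too, at 0.31 to 10.5 CPM in CM and 3.48 to 8.89 CPM in Ctrl. Rapgef3 overlapped as well, at 1.005 to 8.91 CPM in CM and 2.48 to 5.68 CPM in Ctrl. In the CM libraries of weeks 10, 14, 20 and 24 it was at 1.79 CPM or lower. It ended at 8.91 CPM in 3130 at week 25, at 3.004 CPM in 3131 at week 28 and at 3.55 CPM in 3200 at week 18. These mice were 3 CM and 2 Ctrl animals of 1 run, and no test was made. The share of all genes whose ranges lay apart in these libraries is not given, so nothing is read from the ranges.

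Most genes, these 9 included, stood lower in training Ctrl mice by month 10. At that month all 9 members were called lower than at month 0 in the 7 Ctrl mice (limma), where 83.1% of genes were called and the median gene stood at -1.81. Adamts14 had 1.80, 3.57 and 5.35 CPM at month 10, against 22.3, 36.6 and 39.5 CPM at month 0, a change of -3.32 ± 0.23 (limma, adjusted p = 0.000339). Hpgd had 4.00, 6.49 and 13.4 CPM at month 10, against 12.5, 16.2 and 32.1 CPM at month 0, a change of -1.49 ± 0.26 (limma, adjusted p = 0.0013). Globin genes took a median of 31.2% of reads at month 10 and 1.02% at month 0. With median-ratio scaling, which takes out that shift in the median gene, 4 members were called lower (Abca6, Cecr2, Rapgef3 and Adamts14), where 45.2% of all genes were called, and Hpgd stood at 0.21.

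Among other genes of the same families, calls at training month 2 went in both directions in some lists. In the others they were only higher or only lower. Of 34 other cAMP and protein kinase C genes, 7 were called higher and 4 lower in training CM blood at month 2 (limma), where 11.7% of all genes were called, with a list median of 0.12. Prkcq, the theta form of protein kinase C, rose by 1.33 ± 0.15 (limma, adjusted p = 0.000211), and Prkar2b, a regulatory subunit of protein kinase A, by 1.34 ± 0.29 (limma, adjusted p = 0.0105). Of 27 prostaglandin and leukotriene genes, 6 were called higher, among them the receptor Ptgdr at 2.83 ± 0.68 and the cyclooxygenase Ptgs1 at 1.05 ± 0.27 (limma, adjusted p = 0.0173 and 0.0214), and 1 lower. Of 20 syndecan and heparan sulfate genes, 0 rose and 2 fell, Sdc4 by 1.34 ± 0.11 and Ndst1 by 0.38 ± 0.11 on the log2 scale (limma, adjusted p = 1.66e-05 and 0.0351). Of 14 ADAMTS and procollagen genes, 3 were called higher and 0 lower, Adamts5 at 3.01 ± 0.62 (limma, adjusted p = 0.0076). Of 10 other ABCA genes Abca8b fell, by 0.98 ± 0.27, and of 10 neurotrophin genes Maged1 and Sorl1 fell, by 1.06 ± 0.20 and 0.47 ± 0.14 (limma, adjusted p = 0.0304, 0.00509 and 0.0418). Of 22 complexin and SNARE genes Stx3 was called lower and Syt11 higher, and of 20 ISWI and bromodomain genes Brpf1 was called lower. In the syndecan, ABCA, SNARE and bromodomain lists the called share was below the 11.7% of all genes, so nothing is read from their counts.

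The other months gave fewer calls for these lists except month 1 of validation. In training 5.02% of all genes were called at month 1 and 0.632% at month 3. In validation the shares were 28.5%, 0.147% and 0% in months 1 to 3, with 2224 genes at an unadjusted p under 0.05 at month 3. Sdc4 was lower at month 1 in both cohorts, at -1.43 ± 0.29 in training and -0.99 ± 0.28 in validation (limma, adjusted p = 0.0108 and 0.0197). Stx3, a SNARE protein, was likewise lower in both, at -0.96 ± 0.24 and -0.54 ± 0.16 (limma, adjusted p = 0.0281 and 0.0193).

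Markers of B cells and of natural killer (NK) cells were also low in CM blood, with calls that varied by month. At training month 2, where 11.7% of all genes were called, 9 of 13 B cell markers were called lower and 0 higher in CM blood (limma), with a median of -0.66, Pax5 and Vpreb3 at -0.89 ± 0.17 and -1.70 ± 0.15. Their summed level was 2385, 4212 and 5302 CPM in CM, against 5921, 6490 and 6802 CPM in Ctrl, and none of the 13 was at 0. Of 12 NK cell markers 2 were called lower at month 2 and 7 at month 1, where 5.02% of genes were called. In validation month 1, where 28.5% were, the counts were 10 of 13 for B cells and 10 of 12 for NK cells. At training months 4 to 6 the B cell median was -1.16 and the NK cell median -0.62, with 1 marker of each called lower, where 0.724% of genes were called. In the leukemia libraries, where 64.5% of genes were called, all 13 B cell and all 12 NK cell markers were called lower, with medians of -4.79 and -4.05, and 10 of 11 basophil and mast cell markers were called higher, with a median of 7.68. The summed B cell level was 91.7 to 421 CPM at leukemia, against 3535 to 7119 CPM in CM blood at month 0. The part of these cell types in the members' differences was not tested.

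Other marker lists differed in direction at training month 2, where 11.7% of all genes were called. All 14 T cell markers were called higher, with a median of 1.24, as were 8 of 12 platelet, 5 of 9 erythroid and 4 of 10 basophil and mast cell markers. Of 10 conventional dendritic cell markers 1 was called lower, and their summed level was 393, 489 and 611 CPM in CM, against 440, 510 and 561 CPM in Ctrl. Of 13 plasma cell markers 3 were called lower, among them Txndc5 and Ighm at -0.57 ± 0.12 and -0.57 ± 0.17, and of 14 plasmacytoid dendritic cell markers 2 were called higher and 6 lower.

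Within Ctrl blood the members varied together with different cell markers. Over 56 training and 24 validation Ctrl libraries of months outside 1 to 3, several from each mouse, centred on each month's mean and scaled by median ratios, Adamts14 followed the NK cell list with a Pearson r of 0.62 and 0.95. Hpgd followed the conventional dendritic cell list, with r of 0.44 and 0.73. Cecr2 followed the B cell list in training with r of 0.81 but not in validation, with r of -0.04, and Abca6 the conventional dendritic cell list with r of 0.75 and 0.20. Sdc1 followed the plasma cell list in validation with r of 0.69 and not in training. Akap12 and Rapgef3 followed no list at r above 0.5 in either cohort. Over the 36 pairs of members the median r was 0.11 in training and 0.13 in validation (0.60 and 0.25 on the deposited scale). The training pairs ran from -0.35 to 0.69, with 2 above 0.5 and 12 below 0. In validation they ran from -0.65 to 0.88, with 10 above 0.5 and 16 below 0. Cecr2 with Cplx2 reached 0.69 and 0.88.

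**Figure D5:**
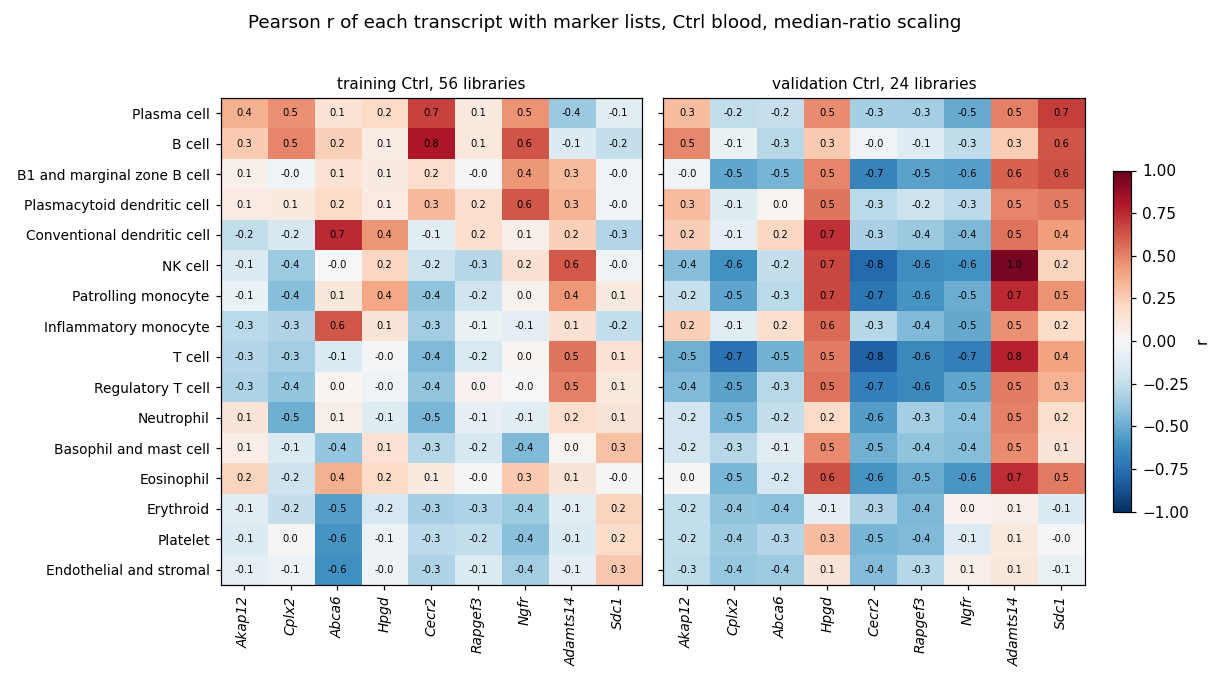
Pearson r between each of the 9 transcripts and the mean of each marker list over Ctrl libraries (56 training, 24 validation) after median-ratio scaling. Adamts14 with NK cells and Cecr2 with B cells in training stand out, and the B cell value of Cecr2 is near 0 in validation.

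Single genes that most resembled a member were sought among all genes in the same 56 training Ctrl libraries, on the deposited scale and centred by month. Among the 3 nearest of each member, those with the highest validation values were Hdac9 with Cecr2 (r of 0.95 in each cohort) and Ldlrad3 with Hpgd (0.85 in each). Next came St14 with Sdc1 (0.79 and 0.80), Fam49a with Hpgd (0.82 and 0.80), Zfp629 with Rapgef3 (0.82 and 0.74) and Spag9 with Akap12 (0.84 and 0.70). The nearest gene of Adamts14 was Camk2b, with an r of 0.88 in training and -0.54 in validation. Libraries with few or many globin reads share that shift on the deposited scale, and the likeness was not tested.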

How the data were processed

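The authors deposited log2 CPM per gene, 1 table for 132 training and 1 for 116 validation libraries. Per the labels' protocols, training libraries were made with KapaHyper and RiboErase in batches randomized over timepoints, and validation libraries with TruSeq, each month a sequencing run of its own. Per the submitters' processing notes, STAR, Subread and featureCounts were used with GRCm38, and edgeR for training. Tool versions were not given in the sources used. The deposited log2 values are whole reads plus a prior of 0.25: in every library 100% of values came out within 0.01 of a whole read, which gave the depths and the CPM printed. Totals leave out genes that the tables do not hold. A log2 CPM of -6.52 (training) or -6.30 (validation) stands for 0 reads.

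Comparisons were fitted across all genes of a table with limma 3.58.1 in R 4.3.3 (moderated test, sex as covariate between arms, each mouse's mean over months 4 to 6, paired by mouse for changes), with Benjamini-Hochberg adjustment at 0.05. Tables and figures used Python 3.11.15, pandas 2.3.3 and numpy 2.4.6. The limma fits were tested on simulated data. Fold changes are log2 differences of CPM with the prior, which understates the change of low genes. Medians, counts and ranges describe lists, and no list was tested. Each library is a separate draw from a labelled mouse, and mice are the replicates. Mouse numbers pair libraries of the same mouse, never CM with Ctrl.

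The 9 members and all gene lists were chosen with earlier results of these data known. Members are named in each comparison or covered by its range or count, and from each list up to 3 genes called at training month 2 with the largest absolute change. Alternatives were median-ratio scaling, a prior of 2 reads, genes with a mean log2 CPM above 1, voom weights, no sex term, single months, a replicate block for each mouse, and each mouse left out. Symbols were found for 16267 of 18508 training and 12613 of 13607 validation IDs in RefSeq. Promoter windows came from RefSeq, GRCm38.p6, and Akap12, Abca6 and Cecr2 are named without one. Another transcript of the original set is not reported here. Intervals cover the spread between mice only, and read counts without molecular identifiers are not independent molecules.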

Additional observations from a re-analysis of the deposited data

Results flagged for a closer look

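A library was looked at again where it lay far from the rest of its group of 4 to 10 by Dixon's test on log2 CPM. This held in 28 of 297 groups (9.43%), where chance alone flags about 1 in 20. CM mouse 3334 of training gave 8 of them. At month 0 it had Akap12 at 4.41 (others 5.66 to 6.06), Cecr2 at 4.70 (5.95 to 6.37), Rapgef3 at 0.18 (1.32 to 1.70) and Ngfr at 1.70 (2.85 to 3.18). At month 5 it had Hpgd at 4.66 and Cecr2 at 5.76, both above the other CM mice. Rapgef3 was at -1.28 in it at month 2 and at -2.62 at month 4, below the other CM mice. CM mouse 3357 had Sdc1 at 4.21 at month 1 (others 1.33 to 2.21) and Abca6 at -1.97 at month 3 (0.54 to 2.04).

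Among training Ctrl mice, 3349 had Akap12 at 6.85 at month 0 and, at month 8, Adamts14 at -1.48. Mouse 3335 had Cecr2 at 5.14 at month 9. Mouse 3350 had Abca6 at -0.70 at month 4. Mouse 3342 had Adamts14 at 4.48 at month 0 and at 3.48 at month 1. Mouse 3340 had Rapgef3 at -4.04 at month 6.

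In validation, CM mouse 2684 had Cecr2 at 3.22 in its leukemia library (others -0.84 to 0.55), 2690 had Hpgd at 4.76 at month 0 (others 5.58 to 6.48), and 2719 had Ngfr at -6.30 at month 3, which is 0 reads. A count of 0 allows up to 3 reads. Ctrl mouse 2705 was low for Abca6 (2.16), Rapgef3 (0.81) and Sdc1 (2.93) at month 0, for Ngfr (1.83) at month 1 and for Rapgef3 (0.35) at month 2. Ctrl mouse 2702 had Ngfr at 3.87 and Sdc1 at 1.81 at month 6, and 2689 had Cecr2 at 4.16 at month 5.

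The change from month 0 to the last library differed between training CM mice and the Ctrl change to month 6 for 4 members by a test of the difference itself. The values were 3.19 for Cplx2, -2.11 for Hpgd, -2.56 for Adamts14 and -2.24 for Sdc1 on the log2 scale, CM minus Ctrl.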

How the results depend on the processing

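Directions held for every called member value in the comparisons outside months 1 to 3 under the alternatives run, except that Hpgd in Ctrl mice at month 10 stood at 0.21 with median-ratio scaling, and Ngfr at 0.20 with month 7 in place of month 10 and that scaling. Of 2315 member values that were not called, 24 changed sign. The number of members called at training months 4 to 6, 1 as reported, changed with many settings. It was 0 with median-ratio scaling, with voom weights, at month 4 alone, at month 5 alone and at month 6 alone. It was also 0 in fits chosen after seeing the data, over months 4 and 5 without month 6 and over the same months with median-ratio scaling. It was 3 with no sex term, and 4 with a replicate block for each mouse over all libraries of months 4 to 6 (consensus correlation -0.0236) or with that replicate block and library group. At that correlation repeated libraries of a mouse counted nearly as separate mice. Leaving out each mouse gave 0 to 3. In validation the consensus correlation was 0.361, and the replicate block changed no other call. No paired analysis was possible between the arms because no mouse number stands in both.

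The CM change to the last library against the Ctrl change to month 6 had a member median of -1.96 with median-ratio scaling and 8 members called (35.9% of all genes), and 7 called with no sex term (45.2%). In fits added after seeing the data, against the Ctrl change to month 5, the median was -2.48 with 7 called (34%), and with median-ratio scaling as well -2.15 with 7 called (39.6%). Against the Ctrl change to month 6 Hpgd lost its call without Ctrl mouse 3349 or 3350, at -1.62 and -1.97 (limma, adjusted p = 0.0545 and 0.0577), and Sdc1 against the Ctrl change to month 10, at -1.56 (limma, adjusted p = 0.0767). The Ctrl median at month 10 was -0.80 with median-ratio scaling and 4 members called. With month 7 in place of month 10, chosen after seeing the data, it was -1.13, and -0.60 with median-ratio scaling.

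Leaving out each mouse gave a member median of -1.73 to -1.55 at training month 2. Single values that changed sign were small. At months 4 to 6 they were Sdc1 in training at month 5 alone (0.013), Rapgef3 in training at month 6 alone (0.14), Cplx2 in validation at month 4 alone (0.22) and Hpgd in validation at month 6 alone (0.21). Cplx2 at validation month 2 was -0.12 without CM mice 2700 and 2731. Leaving out each mouse gave, at training month 0, -0.028 to 0.24 for Hpgd, -0.32 to 0.041 for Ngfr and -0.35 to 0.057 for Sdc1. At validation month 0 it gave -0.068 to 0.19 for the member median, -0.13 to 0.14 for Cecr2, -0.23 to 0.22 for Cplx2, -0.022 to 0.11 for Ngfr and -0.068 to 0.24 for Sdc1. It gave -0.058 to 0.62 for Cplx2 at validation month 2 and -0.037 to 0.50 at month 3. It gave -0.36 to 0.64 for Cplx2 in the last training libraries, -0.94 to 0.0084 for Cecr2 against the Ctrl change, and -0.014 to 0.83 for Rapgef3 at leukemia. The cause was not tested in any of these. Depth limits Ngfr at leukemia, under 10 reads in every library, and Adamts14 and Sdc1, under 10 in some.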
